A study of Mus musculus with 10 samples.

Results

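The genes described here are 31 genes of cholesterol and fatty acid synthesis, chosen by symbol from the 55414 genes listed, in mpkCCD cells that lacked or kept the kinase CAMK2D. They comprise 5 genes of the SREBP sensing machinery, 18 enzymes of sterol synthesis, 1 sterol carrier protein, and 7 genes of acetyl-CoA supply and fatty acid synthesis. All 31 were above 0 TPM in all 10 samples, all had a mean of at least 1 TPM, and all passed the filter for testing. mpkCCD is an immortalized line of principal cells from the mouse cortical collecting duct, labelled with a C57BL/6 background. The Camk2d-KO group held 5 clones made with CRISPR-Cas9, each grown from a single cell and each sequenced once. The study's supplement assigns KO 1 and KO 2 to a guide against exon 8, and KO 3, KO 4 and KO 5 to a guide against exon 9. The labels give no guide, so that any comparison by guide assumes that the clones carry the same numbers in both. The intact group held 5 samples of 3 lines, namely the untransfected parental line once and 2 transfected clones that kept CAMK2D with 2 samples each, called a and b here. The sources used here do not say whether samples a and b were separate cultures or repeat libraries, so that p-values may rest in part on technical spread. All cells, intact and KO, were grown on membrane filters with 0.1 nM of the V2-receptor agonist dDAVP for 7 days, first in complete medium with insulin and serum and then in serum-free medium that kept dexamethasone, selenite and transferrin but not insulin.

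Animal cells make cholesterol from acetyl-CoA through mevalonate, farnesyl diphosphate, squalene and lanosterol, and they make fatty acids from the same acetyl-CoA. Both routes are set by the SREBP transcription factors, which are held in the endoplasmic reticulum by SCAP and the INSIG proteins while sterol is plentiful. When sterol runs low, SCAP carries SREBP to the Golgi, where proteases free its active part. SREBP-2, from Srebf2, mainly drives the sterol genes, and SREBP-1, from Srebf1, mainly drives the fatty acid genes. The collecting duct is not known as a lipogenic tissue, and its principal cells reabsorb water through aquaporin-2 in an apical membrane whose lipid makeup the cells maintain.

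Camk2d itself ranged from 122.68 to 141.28 TPM in the intact samples and from 19.76 to 29.76 TPM in the KO clones, in the direction of the labels, and it was the 1 gene of 20000 tested that passed the test between KO and intact (0.005%). Of 10 principal cell markers, 9 were at 1 TPM or more, and their summed level was 7018 to 8812 TPM in intact samples and 4316 to 7030 TPM in KO clones. Among them Aqp2 ranged from 3773 to 5502 TPM in intact samples and from 1281 to 3789 TPM in KO clones (adjusted p = 0.565 in limma), lowest in KO 1 and KO 2. The 10 markers did not go one way, in that 6 had a lower and 4 a higher KO mean, the latter being Aqp3, Scnn1a, Gata3 (250 TPM in intact and 264 TPM in KO) and Hsd11b2 (19.5 and 45.3 TPM), and none passed the adjusted test. Markers of other cells were low in both groups. The 7 intercalated cell markers summed to 1.88 to 3.49 TPM in intact samples and 1.00 to 7.11 TPM in KO clones, with Atp6v1g3 and Kit at 0. The 5 proximal tubule markers summed to 7.54 to 12.98 TPM and 6.53 to 15.05 TPM, nearly all from Lrp2 and with Slc34a1 at 0, and the 5 fibroblast markers to at most 0.61 and 0.49 TPM, with Col1a2 and Lum at 0. The 5 adipocyte markers summed to at most 0.18 TPM in intact samples and 0.39 TPM in KO clones, and the 4 hepatocyte markers to at most 0.06 and 0.23 TPM, with Ttr and Cyp7a1 at 0. Whether Aqp2 or the summed marker level bears on the lipid genes was not tested. Bulk samples cannot tell fewer cells of a type from less RNA per cell.

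The control regions upstream of 3 of these genes are shown because they stand for the 3 arms of the group, namely the regulator Srebf1, the sterol enzyme Hmgcs1 and the fatty acid enzyme Fasn. Each is the 250 bases before a transcript start in RefSeq (GRCm38.p6), read 5′ to 3′ on the strand of the gene. Capitals mark the sterol regulatory element (TCACNCCAC), the CCAAT box (CCAAT) or the GC box (GGGCGG), on either strand. Srebf1 has 3 starts in the table, of which 2 are shown, at chr11:60210472-60210721 and chr11:60220628-60220877 (minus strand). The Hmgcs1 region is chr13:119690101-119690350 (plus strand) and the Fasn region is chr11:120824548-120824797 (minus strand).
Srebf1 at the first of these positions: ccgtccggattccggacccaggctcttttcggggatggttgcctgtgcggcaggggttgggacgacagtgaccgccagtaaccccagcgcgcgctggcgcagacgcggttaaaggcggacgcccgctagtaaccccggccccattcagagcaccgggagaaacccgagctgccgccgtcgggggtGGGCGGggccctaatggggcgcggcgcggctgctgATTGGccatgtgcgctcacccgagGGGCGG
Srebf1 at the second of these positions: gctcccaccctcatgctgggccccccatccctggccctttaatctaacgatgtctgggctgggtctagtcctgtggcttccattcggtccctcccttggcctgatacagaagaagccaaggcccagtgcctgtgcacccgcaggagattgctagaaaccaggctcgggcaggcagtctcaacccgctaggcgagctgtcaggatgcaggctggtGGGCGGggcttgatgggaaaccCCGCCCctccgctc
Hmgcs1: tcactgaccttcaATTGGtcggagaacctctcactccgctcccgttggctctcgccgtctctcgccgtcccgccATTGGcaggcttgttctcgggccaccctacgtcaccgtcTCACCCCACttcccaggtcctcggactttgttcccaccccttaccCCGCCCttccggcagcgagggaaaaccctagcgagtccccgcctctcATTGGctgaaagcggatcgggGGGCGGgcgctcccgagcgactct
Fasn: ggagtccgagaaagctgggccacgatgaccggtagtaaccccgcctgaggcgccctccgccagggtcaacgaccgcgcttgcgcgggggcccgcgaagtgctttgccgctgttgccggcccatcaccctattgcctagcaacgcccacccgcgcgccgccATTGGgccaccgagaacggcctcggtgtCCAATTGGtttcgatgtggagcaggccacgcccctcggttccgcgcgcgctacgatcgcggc

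Of the 31 genes, 25 had an entry in the promoter table. Fdps, Fdft1, Sqle, Stard4, Scd1 and Scd2 were not matched. The CCAAT box was found in 20 of the 25 (80%), against 37.5% of the 27025 genes of the table, and the GC box in 21 (84%), against 35.4%. The letters CACGTG, an E-box, were found in 5 of the 25 (20%), namely Dhcr7, Hsd17b7, Insig1, Sc5d and Scap, against 6.86% of all genes. The strict letters TCACNCCAC were found in Hmgcs1 alone (4%), with the match starting 137 bases before the start site, against 1.22% of all genes. In Fasn the CCAAT matches that start 62 and 59 bases before the start site lie on opposite strands and overlap. These counts describe letters in a 250-base window and not occupied sites.

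In intact cells the levels of these genes per unit of length spanned from 4.46 TPM for Acaca to 594 TPM for Scd2. The 13 members with an intact mean of at least 100 TPM included Scd2, which desaturates stearoyl-CoA (594 ± 31.6 TPM, SD, n = 5), Fdps, which makes farnesyl diphosphate (438 ± 54.0 TPM), and Msmo1, the sterol C4-methyl oxidase (234 ± 25.6 TPM). The 5 members under 15 TPM were Tm7sf2, Scd1, Hsd17b7, Acss2 and Acaca. Scd1, the other stearoyl-CoA desaturase on the list, was at 10.8 ± 1.28 TPM (n = 5). The 31 genes together made up 0.283% to 0.343% of the TPM of a sample.

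**Figure D1:**
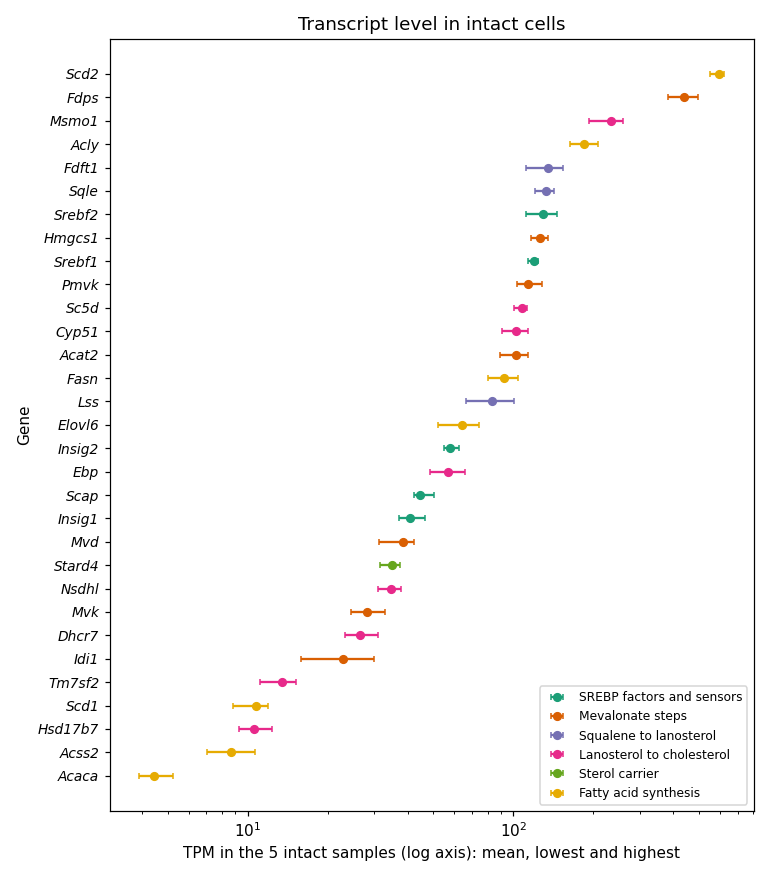
Mean TPM of the 31 genes in the 5 intact samples (log axis), ordered by level and coloured by role, with bars for the lowest and highest sample. Scd2 and Fdps stand at the top at 594 and 438 TPM and Acaca at the bottom at 4.46 TPM.

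The first comparison asked whether lipid synthesis genes differed between cells without and with CAMK2D. None of the 31 passed the test between KO and intact (limma on log2(TPM + 1), Benjamini-Hochberg adjusted over 20000 genes, lowest adjusted p of a member 0.472 for Srebf1). At an unadjusted p under 0.05, 7 members (22.6%) differed, against 6.99% of all genes tested, with 4 higher (Srebf1, Scap, Acaca, Fasn) and 3 lower (Hmgcs1, Tm7sf2, Acss2) in the KO clones. Of all genes tested, 4.52% were higher and 2.46% lower at that level. Of the genes with a mean of at least 1 TPM, as all 31 members had, 8.44% differed at that level. The count of 7 did not hold once the 2 samples of an intact clone were not taken as independent, since it was 1 member with 1 value per cell line and 1 with cell line as a random effect, and it ran from 3 to 9 when single samples were left out. The differences were small. The KO mean was between 79.99% and 124% of the intact mean for all 31 genes, 19 were within 10% of it, and all 31 had a log2 ratio under 0.3 in size. Of the 18 sterol enzymes 17 had a lower KO mean, against 42.7% of all genes tested, and 4 of the 7 genes of fatty acid synthesis had a higher one, against 57.3%.

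**Figure D2:**
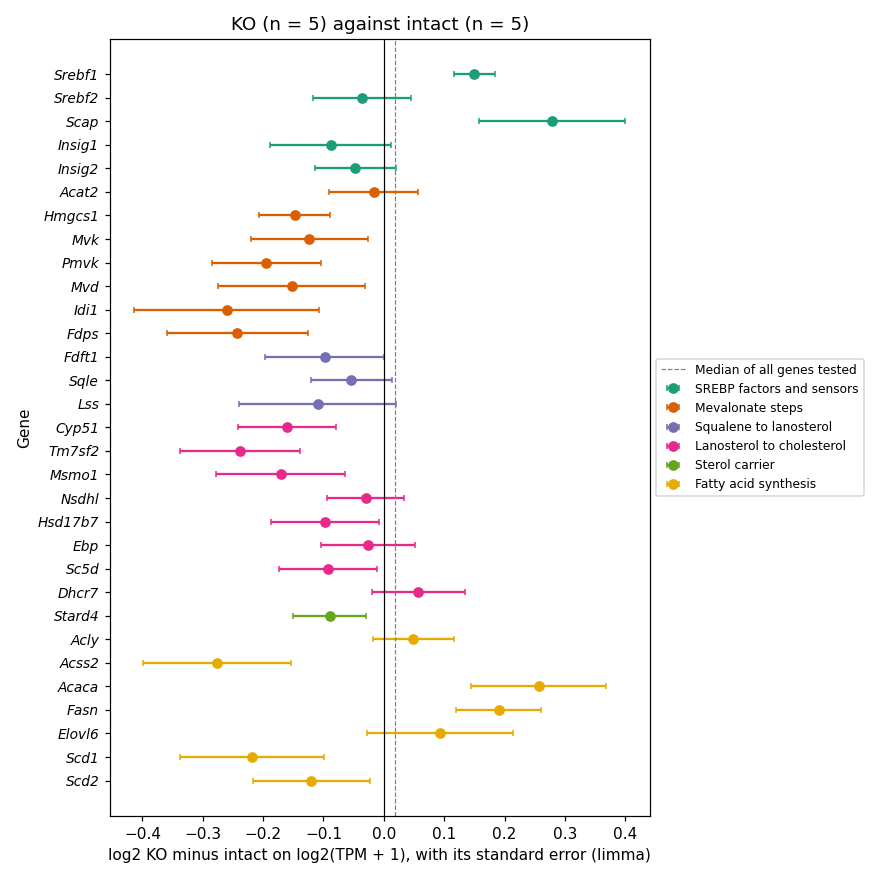
Log2 ratio of KO to intact for each member from limma on log2(TPM + 1), with bars of 1 standard error, 5 KO and 5 intact samples, grouped by role. The 17 sterol enzymes with a lower KO mean lie left of 0, Scap and Acaca lie farthest right, and no gene passed the adjusted test.

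Among the sensors and factors, Srebf1 was the only member whose groups did not overlap. It was at 124.08 TPM in the parental line, 121.89 and 119.13 TPM in samples a and b of intact clone 1, and 113.04 and 120.05 TPM in those of intact clone 2. The KO clones 1 to 5 were at 133.91, 129.98, 134.82, 132.29 and 133.04 TPM. All 5 KO clones were thus higher than all 5 intact samples, and the KO values were the closer together (133 ± 1.84 TPM against 120 ± 4.15 TPM, SD, n = 5 each). The log2 ratio was 0.15 (SE 0.03), with an unadjusted limma p of 0.0013 and an adjusted p of 0.472. The two-sided exact permutation test gave p = 0.00794 over 10 samples, and p = 0.0179 over the 8 cell lines with 1 value each, in both cases the smallest p the design allows. Over the 10 samples, groups without overlap always give that p, so that it adds nothing to the lack of overlap. No permutation p here or below was adjusted over the members. Groups without overlap and with higher KO values made up 1.2% of all genes tested, 1.64% did not overlap in either direction, and the share with lower KO values was 0.445%. The gene-level value does not separate the transcripts of SREBP-1a and SREBP-1c, which start at different sites, so that the difference cannot be placed at either of the start regions shown above.

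Srebf2, the gene of the sterol-directed factor, did not pass the test and its groups overlapped. It was at 126.12, 145.70, 139.74, 111.87 and 121.48 TPM in the intact samples, given here and below in the order parental, clone 1 a and b, clone 2 a and b. The KO clones 1 to 5 were at 121.63, 114.32, 126.02, 143.37 and 122.41 TPM, for a log2 ratio of -0.04 (SE 0.08, adjusted p = 0.941 in limma). The highest intact samples were those of clone 1 and the highest KO clone was KO 4.

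Scap, the escort of SREBP, was at 42.73, 50.44, 44.03, 42.31 and 42.97 TPM in the intact samples and at 46.46, 76.72, 50.67, 50.16 and 51.04 TPM in KO 1 to KO 5. The means were 44.5 ± 3.38 and 55.0 ± 12.3 TPM (n = 5 each), with a log2 ratio of 0.28 (SE 0.12, unadjusted p = 0.0427 and adjusted p = 0.701 in limma). KO 2 stood far above the other KO clones, and without it the log2 ratio was 0.15. The exact permutation test gave p = 0.0238 over the 10 samples and p = 0.107 over the 8 cell lines. Of the 50-base windows of the Scap transcripts, 9.96% also occur in 5830462I19Rik.

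The INSIG proteins hold SCAP in the endoplasmic reticulum, and both of their genes overlapped between the groups. Insig1 was at 37.11, 39.90, 41.14, 40.06 and 46.51 TPM in the intact samples and at 34.79, 48.21, 32.78, 36.72 and 41.05 TPM in the KO clones (log2 ratio -0.09, SE 0.10). Insig2 was at 62.51, 57.09, 54.87, 54.64 and 60.78 TPM in the intact samples and at 63.44, 49.32, 55.65, 57.31 and 55.19 TPM in the KO clones (log2 ratio -0.05, SE 0.07). KO 2 was the highest KO clone for Insig1 and the lowest for Insig2. These ratios rested on single clones, in that Insig1 was at -0.17 without KO 2 and -0.03 without KO 3, and Insig2 at -0.0021 without KO 2 and -0.09 without KO 1.

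**Figure D3:**
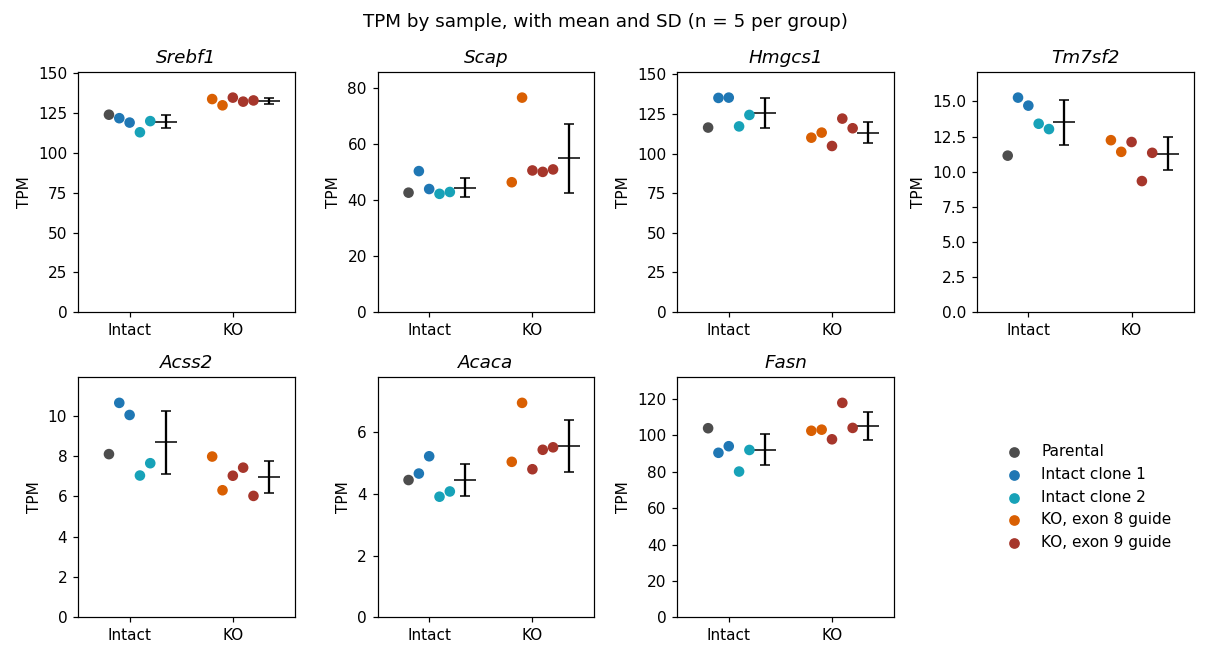
TPM of Srebf1, Scap, Hmgcs1, Tm7sf2, Acss2, Acaca and Fasn in each sample, intact at left and KO at right, with colours for the parental line, the intact clones and the KO guide, and the mean and SD of each group. The panels show no overlap for Srebf1 and overlapping groups for the others, with KO 2 alone at 76.72 TPM for Scap.

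The 7 mevalonate-pathway enzymes, which lead from acetyl-CoA to farnesyl diphosphate, all had a lower mean in the KO clones, with a median log2 ratio of -0.15 and none past the adjusted test. Hmgcs1, which condenses acetoacetyl-CoA with acetyl-CoA, was at 116.35, 135.04, 135.23, 117.08 and 124.31 TPM in the intact samples. In the KO clones it was at 109.98, 113.17, 104.73, 122.00 and 115.92 TPM. KO 4 alone lay above the lowest intact samples, those of the parental line and clone 2 a, and the means were 126 ± 9.24 and 113 ± 6.46 TPM (n = 5 each), a log2 ratio of -0.15 (SE 0.06, unadjusted p = 0.0292 and adjusted p = 0.668 in limma). The exact permutation test gave p = 0.0397 over the samples and p = 0.125 over the lines. Its upstream region is the one shown above that holds the strict sterol regulatory element.

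Idi1, the isopentenyl diphosphate isomerase, had the lowest log2 ratio of the mevalonate enzymes and also a wide spread. It was at 15.92, 29.94, 20.53, 21.05 and 27.36 TPM in the intact samples and at 17.19, 20.91, 16.02, 20.02 and 19.04 TPM in the KO clones, a log2 ratio of -0.26 (SE 0.15, adjusted p = 0.763 in limma). Its lowest intact sample, the parental line, lay below all 5 KO clones. Without the parental line the log2 ratio was -0.38, without clone 1 a it was -0.16, and with 1 value per line it was -0.18. Fdps was at 382.80, 495.60, 487.25, 384.35 and 440.95 TPM in the intact samples and at 366.98, 285.57, 365.51, 432.21 and 407.02 TPM in the KO clones, a log2 ratio of -0.24 (SE 0.12, adjusted p = 0.742 in limma). KO 2 was the lowest, and without it the log2 ratio was -0.15.

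The other mevalonate enzymes had KO means of 98.4% of the intact mean for the thiolase Acat2, 91.5% for mevalonate kinase Mvk, 87.5% for phosphomevalonate kinase Pmvk and 90.2% for the decarboxylase Mvd. Their groups overlapped, and the unadjusted limma p of Pmvk was 0.056. Some reads of the mevalonate genes could belong to near copies. For Hmgcs1, 10% of the 50-base windows of its transcripts also occur in Gm48342. Of the 50-base windows of the Acat2 transcripts, 39.1% also occur in Acat3, and 23.4% of those of Fdps and 17.7% of those of Idi1 also occur in Gm43738 and Gm13502 respectively, so that how the counting divided such reads bears on the levels given here.

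Downstream of farnesyl diphosphate, the 3 enzymes from squalene to lanosterol again had lower KO means, with a median log2 ratio of -0.10 and no unadjusted p under 0.05. They were squalene synthase Fdft1 (93.1% of intact), squalene epoxidase Sqle (96.3%) and lanosterol synthase Lss (91.8%). Of the Fdft1 windows, 17.2% also occur in Ctsb. Lss varied widely within the intact clones, at 76.91 and 100.58 TPM in the samples of clone 1 and 70.96 and 99.55 TPM in those of clone 2. For this gene the samples of each clone thus lay farther apart than the KO and intact means.

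Of the 8 enzymes from lanosterol to cholesterol, 7 had a lower KO mean, and the median log2 ratio was -0.10. Tm7sf2, a sterol C14-reductase, was at 11.14, 15.27, 14.70, 13.41 and 13.03 TPM in the intact samples and at 12.24, 11.41, 12.11, 9.33 and 11.34 TPM in the KO clones. Apart from the parental line, every intact sample was above every KO clone. The means were 13.5 ± 1.61 and 11.3 ± 1.17 TPM (n = 5 each), with a log2 ratio of -0.24 (SE 0.10, unadjusted p = 0.0370 and adjusted p = 0.687 in limma), and the exact permutation p was 0.0476 over samples and 0.179 over lines.

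The other genes of this stretch overlapped between the groups. Their KO means were 89.6% of the intact mean for the lanosterol demethylase Cyp51, 89.0% for Msmo1, 97.7% for the C4-decarboxylase Nsdhl, 92.7% for the 3-ketosteroid reductase Hsd17b7, 97.9% for the isomerase Ebp and 94.3% for the desaturase Sc5d. Dhcr7, the 7-dehydrocholesterol reductase, was the 1 gene of the 18 sterol enzymes with a higher KO mean, at 104% of intact (log2 ratio 0.06, SE 0.08, and 0.01 without the parental line to 0.11 without clone 1 a). Stard4, which carries cholesterol between membranes, was at 93.8%. Over the 18 sterol enzymes the median log2 ratio was -0.12, with a range from -0.26 to 0.06, against a median of 0.02 over all genes tested, of which 42.7% had a lower KO mean. Their summed level was 1805 ± 175 TPM in the intact samples and 1632 ± 104 TPM in the KO clones (n = 5 each), and the groups overlapped.

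The 7 genes of acetyl-CoA supply and fatty acid synthesis had KO means on both sides of the intact means, with 4 higher and 3 lower in the KO clones and a median log2 ratio of 0.05. Acaca, the acetyl-CoA carboxylase that makes malonyl-CoA, was at 4.45, 4.66, 5.22, 3.91 and 4.08 TPM in the intact samples and at 5.04, 6.95, 4.80, 5.43 and 5.51 TPM in the KO clones. The groups overlapped by clone 1 b alone, which lay above KO 1 and KO 3. The log2 ratio was 0.26 (SE 0.11, unadjusted p = 0.0432 and adjusted p = 0.704 in limma), and the exact permutation p was 0.0317 over samples and 0.0536 over lines. Of the Acaca windows, 29.2% also occur in Gm5182.

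Fasn, the fatty acid synthase that follows it, was at 104.00, 90.49, 94.11, 80.18 and 92.05 TPM in the intact samples and at 102.60, 103.21, 97.91, 117.94 and 104.17 TPM in the KO clones. All KO clones were above the 4 samples of intact clones, and the parental line was among the KO values. The means were 92.2 ± 8.52 and 105 ± 7.54 TPM (n = 5 each), with a log2 ratio of 0.19 (SE 0.07, unadjusted p = 0.0211 and adjusted p = 0.651 in limma). The exact permutation test gave p = 0.0317 over samples and p = 0.161 over lines.

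Acss2, which makes acetyl-CoA from acetate, was at 8.09, 10.63, 10.03, 7.03 and 7.64 TPM in the intact samples and at 7.97, 6.30, 7.02, 7.42 and 6.02 TPM in the KO clones. The samples of intact clone 1 were the highest, and those of clone 2 lay among the KO clones. The log2 ratio was -0.28 (SE 0.12, unadjusted p = 0.0475 and adjusted p = 0.71 in limma), with an exact permutation p of 0.0556 over samples and 0.107 over lines. Acly, which makes acetyl-CoA from citrate, had a KO mean of 103% of intact, and the elongase Elovl6 of 107%. The desaturases Scd1 and Scd2 were at 85.0% and 92.7%. None of these 4 had an unadjusted p under 0.05.

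The members were then compared between the 8 cell lines, which the intact clones allow since each was sampled more than once. Only those 2 pairs of samples gave the spread. In the limma F test 719 of 20000 genes differed between lines (3.6%) and 0 members did, with a lowest adjusted p of 0.0743 for Scd2, which was called at an adjusted p of 0.0456 when the genes tested were those with a mean of at least 1 TPM. At an unadjusted p under 0.05, 10 members (32.3%) differed, against 28.7% of all genes and 33.7% of those with a mean of at least 1 TPM. They were Scap, Hmgcs1, Pmvk, Fdps, Tm7sf2, Msmo1, Sc5d, Acss2, Elovl6 and Scd2. The share of members was thus near that of all genes. Scd2 was at 621.46, 618.90, 606.57, 549.66 and 571.90 TPM in the intact samples and at 652.12, 438.81, 510.20, 606.54 and 545.48 TPM in the KO clones, so that KO 2 was the lowest and KO 1 the highest. Leaving out any 1 of the 4 intact clone samples brought the count of all genes to 0.

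**Figure D4:**
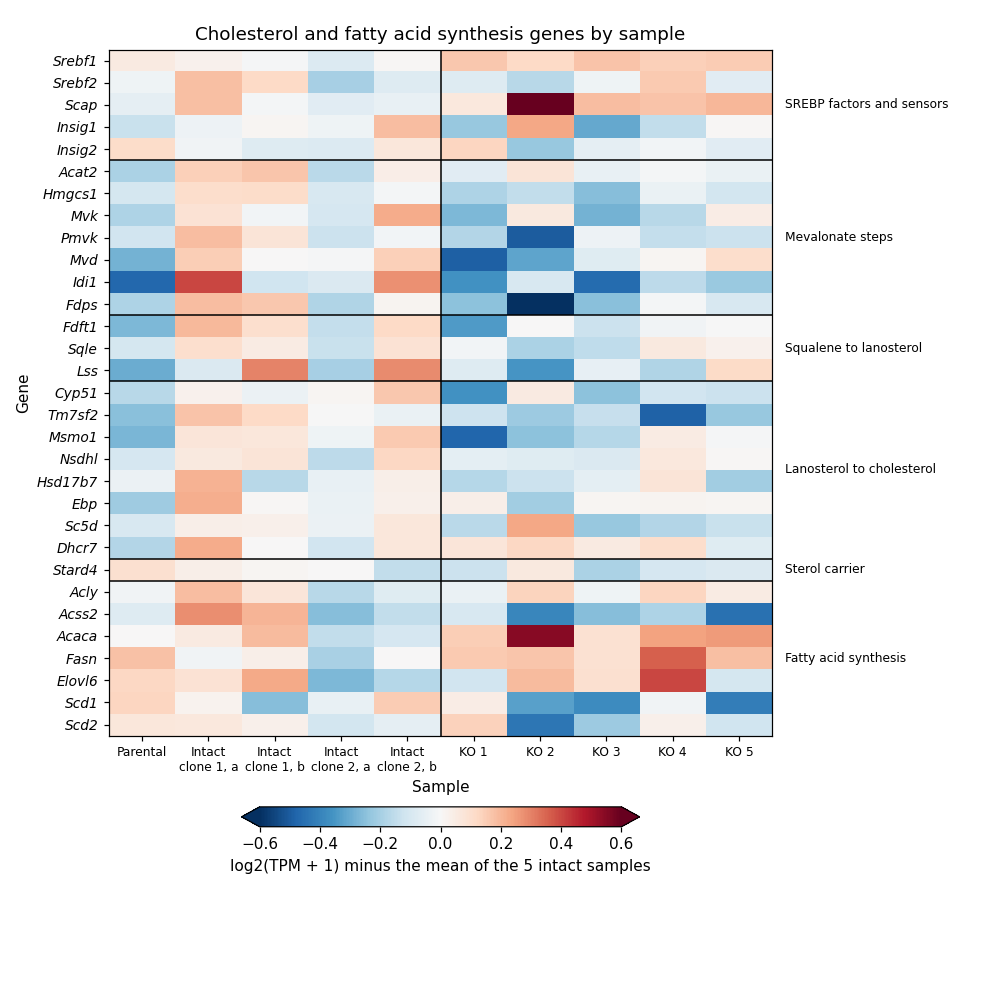
Log2(TPM + 1) of each of the 31 genes in each of the 10 samples minus the mean of that gene over the 5 intact samples, in colour, with genes grouped by role and samples ordered as parental, intact clones (a and b) and KO 1 to 5. Most sterol enzymes are above that intact mean in clone 1 a and b and in clone 2 b, and below it in the parental line.

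The sterol enzymes were summarised sample by sample. The median deviation of the 18 enzymes from their own mean over the samples was -0.13 in the parental line, 0.19 and 0.09 in samples a and b of clone 1, and -0.03 and 0.13 in those of clone 2 (log2 units). In KO 1 to KO 5 it was -0.11, -0.08, -0.08, 0.03 and -0.01, all within the range of the intact samples. The median over all genes tested lay between -0.03 and 0.02 in every sample. For the 7 fatty acid genes it was 0.08, 0.12, 0.06, -0.19 and -0.09 in the intact samples and 0.04, 0.07, -0.05, 0.10 and -0.06 in the KO clones.

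**Figure D5:**
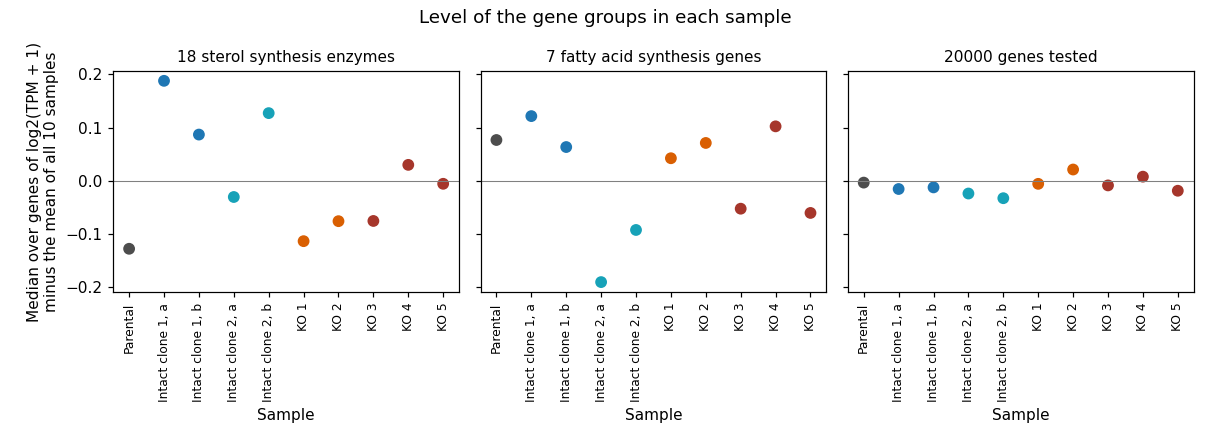
Median deviation (log2 units) of the 18 sterol enzymes, the 7 fatty acid synthesis genes and all genes tested in each of the 10 samples. The sterol enzymes run from -0.13 in the parental line to 0.19 in clone 1 a, and all genes stay between -0.03 and 0.02.

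The untransfected parental line stood apart from the transfected intact clones in the sterol arm. It was lower than the mean of the clones for 18 of the 18 enzymes, and below all 4 clone samples for 14, with a median difference of -0.23 on the log2 scale. Over all genes tested, 9215 of 20000 were lower than the clone mean and 2908 below all 4 clone samples, and the median difference was 0.01. The KO clones lay nearer to the parental line, with a median difference of 0.07 above it and 14 of the 18 enzymes higher. Over all genes tested, the KO mean was above the parental line for 10703 of 20000, with a median difference of 0.01. This is 1 sample of the parental line, so that its difference from the clones was given no test of its own.

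The samples of the same intact clone also differed. In clone 2, sample b was higher than sample a for 17 of 18 sterol enzymes and 29 of the 31 members, with a median difference of 0.18 over the 18 enzymes, while over all genes the median was 0 and 8853 of 20000 were higher. In clone 1, sample b was higher than a for 4 of the 18 enzymes, with a median of -0.06, and for 9265 of 20000 genes. Between the clones, clone 2 was lower than clone 1 for 16 of 18 enzymes (median -0.09) and 26 of 31 members, against 11045 of 20000 genes (median -0.01), and its fatty acid genes had a median of -0.25. In the test of clone 2 against clone 1, 5 of 20000 genes differed (0.025%) and 0 members did. At an unadjusted p under 0.05 there were 6 members (19.4%) against 17.1% of all genes and 21.1% of those with a mean of at least 1 TPM. The lowest adjusted p of a member was 0.167. A difference of 0.18 between samples of 1 clone was larger than the median difference of the enzymes between KO and intact.

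The KO clones were also compared by the guide used. Between exon 9 clones and exon 8 clones, 62 of 20000 genes differed (0.31%), and 0 members did. At an unadjusted p under 0.05 there were 2 members (6.45%), both higher in exon 9 clones, against 12.1% of all genes and 14.8% of those with a mean of at least 1 TPM. Of all genes, 4.93% were higher and 7.18% lower in exon 9 clones at that level. Mvd was at 26.88 and 30.37 TPM in the exon 8 clones and at 36.22, 38.42 and 41.05 TPM in the exon 9 clones, a log2 difference of 0.42 (SE 0.13, unadjusted p = 0.008 and adjusted p = 0.247 in limma). Msmo1 was at 167.18 and 195.89 TPM and at 206.52, 240.75 and 231.40 TPM, a log2 difference of 0.32 (SE 0.13, adjusted p = 0.370 in limma). For these genes the intact samples, at 31.12 to 42.35 TPM for Mvd and 192.45 to 259.47 TPM for Msmo1, spanned the whole exon 9 range. This comparison rests on 2 and 3 clones. Without KO 1, the exon 8 arm was KO 2 alone and was assumed to vary like the other groups. In that setting Scap (log2 difference -0.59, adjusted p = 0.00893) and Sc5d (-0.41, adjusted p = 0.0113) were called, as were 1730 of 20000 genes, a larger share than that of the members. These are genes for which KO 2 stood apart from the other 4 KO clones, Sc5d being at 96.30, 126.78, 91.84, 95.34 and 97.98 TPM in KO 1 to KO 5 and at 100.62, 110.32, 110.20, 105.04 and 112.79 TPM in the intact samples.

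Around the pathway, 54 related genes were listed, of which 49 were tested and Mlxipl, Abca1, Abcg1, Cyp27a1 and Thrsp fell below the filter. They cover SREBP activation and turnover, non-sterol isoprenoids, sterol trafficking, storage and efflux, and fatty acid supply, elongation, desaturation and glycerolipids. Between KO and intact 26 had a higher and 23 a lower KO mean, 0 passed the adjusted test, and 5 (10.2%) had an unadjusted p under 0.05, against 6.99% of all genes. Nr1h2, the sterol-sensing receptor LXR beta, had groups without overlap, at 115 ± 1.61 TPM in intact and 125 ± 6.19 TPM in KO (n = 5 each, log2 ratio 0.13, adjusted p = 0.568 in limma). It was the 1 such gene of the 49, and 1.64% of all genes tested had no overlap, 1.2% with higher KO values. Osbp, which exchanges sterol between membranes, was at 70.7 ± 5.61 and 79.8 ± 6.08 TPM, and Soat1, which esterifies cholesterol for storage, at 150 ± 11.8 and 124 ± 21.1 TPM. Mid1ip1, which promotes acetyl-CoA carboxylase activity, was at 241 ± 23.4 and 216 ± 12.5 TPM.

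Gramd1b, which moves cholesterol from the plasma membrane to the endoplasmic reticulum, was at low levels. It was at 0.73 TPM in the parental line, 0.02 and 0.02 TPM in clone 1 and 0 in both samples of clone 2. The KO clones were at 1.46, 1.47, 1.03, 1.78 and 0.48 TPM, so that only KO 5 lay below the parental line. The log2 ratio on the log2(TPM + 1) scale was 0.96 (SE 0.20, adjusted p = 0.378 between KO and intact in limma). The F test between the 8 lines gave an adjusted p of 0.0255, 1 call among the 49 related genes against 3.6% of all genes, but for Gramd1b the spread in that test came from clone samples at or near 0 TPM and says nothing of the spread at the levels of the other lines.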

How the data were processed

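Full-length cDNA of 10 samples was made with SMART-Seq v4, which keeps no strand, and sequenced as 50-base pairs. The authors aligned reads to the mouse genome with STAR and deposited TPM from RSEM, per the submitters' processing notes and methods. Their own test used expected counts, which were not used here, so depth is unknown and no interval from counts is given. All value columns matched a sample.

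TPM were taken as log2(TPM + 1), and the 20000 genes with the highest mean were tested with limma 3.58.1 (trend, R 4.3.3) and two-sided p-values adjusted by Benjamini-Hochberg (threshold 0.05), checked on simulated data. Single genes had exact permutation tests (252 arrangements), not adjusted over the members. The members and lists were chosen with earlier results of these data known. Values in every sample are given for members with an unadjusted p under 0.05 or no overlap between KO and intact, the 3 largest ratios each way, members called in any comparison or alternative, and the SREBP factors and sensors. Promoters (RefSeq, GRCm38.p6) and shared 50-base windows (GENCODE M21, GRCm38) use another annotation than the TPM. Alternatives covered the pseudocount, filters, scaling, trend, cell line and each sample.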

Additional observations from a re-analysis of the deposited data

Results flagged for a closer look

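Each member was checked for a sample far from the others of its group (Dixon's test, critical value 0.71 for 5 samples), in 62 groups of 5. Chance flags about 1 in 20 groups, and 4 stood out. Scap was highest in sample a of intact clone 1, at 50.44 TPM with the nearest at 44.03 TPM (a gap of 0.788 of the range), and in KO 2, at 76.72 TPM with the nearest at 51.04 TPM (0.849). KO 2 was also the lowest KO clone for Ebp, at 48.76 TPM against 56.92 to 57.85 TPM in the others (0.898), and the highest for Sc5d, at 126.78 TPM against 91.84 to 97.98 TPM (0.824). KO 2 thus held 3 of the 4, and the cause was not tested.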

How the results depend on the processing

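No paired analysis was possible because the labels give the intact samples no number that pairs them with a KO clone. Over 18 alternatives for each member, 27 of 31 kept the sign of their log2 ratio between KO and intact, and no member passed the adjusted test (lowest adjusted p 0.256). Srebf1 kept a log2 ratio of 0.12 to 0.16, with adjusted p of 0.256 to 1.00. The sign turned for Srebf2 (0.00904 without clone 1 a, -0.0855 to 0.00904 leaving out single samples), Acat2 (0.0146 with 1 value per line, 0.00348 with cell line as a random effect, -0.0636 to 0.0247 leaving out single samples), Nsdhl (-0.0697 to 0.00116 leaving out single samples, the latter without clone 2 b) and Ebp (0.00887 with 1 value per line, -0.0794 to 0.0276 leaving out single samples, above 0 without KO 2 or clone 1 a). The count of genes between KO and intact was 2 with a pseudocount of 0.1 and 1 to 2 leaving out single samples. Members at an unadjusted p under 0.05 numbered 1 with 1 value per line, 1 with cell line as a random effect and 3 to 9 leaving out single samples, and sterol enzymes with a lower KO mean 15 to 17.

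Between guides, 6 genes were called with 1 value per line and 21 to 1730 leaving out single samples (1730 without KO 1 and 634 without KO 2), with 0 to 2 members called and 1 to 6 at an unadjusted p under 0.05. Between lines, 3448 genes were called with no filter, 452 without the trend and 0 to 890 leaving out single samples. Members at an unadjusted p under 0.05 then numbered 5, 6 and 2 to 10, and among genes with a mean of at least 1 TPM there were 13, with 1 member, Scd2, called (adjusted p 0.0456). In the main fit, 33.7% of all genes with such a mean were at an unadjusted p under 0.05. The shares of all genes at that level under these alternatives are not given here, so that these member counts cannot be set against them. Apart from these constructions (fewer samples or another set of genes), the cause was not tested. Depth is unknown, so its limit on low genes such as Acaca cannot be given.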
